A study of Mus musculus with 7 samples.

Results

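Collagens are the main structural proteins of the extracellular matrix, and the genes of their chains were followed here in mouse fibroblasts under chemical reprogramming with and without the Syk inhibitor R406. The collagen genes were every gene of the deposited expression table whose mouse symbol is Col, a type number, the letter a and a chain number, which gave 44 of 53715 genes. By the kind of assembly their proteins form, 11 were classed as fibrillar, 8 as basement membrane, 9 as fibril-associated collagens with interrupted helices (FACIT), 9 as network-forming and 7 as minor.

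The study treated mouse embryonic fibroblasts from OG2 mice (CBA-Tg(Pou5f1-EGFP)2Mnn/J, a strain with a green fluorescent Pou5f1 reporter), taken at embryonic day 13.5 and used by passage 3. All RNA-seq groups were in Stage 1 reprogramming medium, which the protocol keeps for 12 days with fresh medium every 4 days. That medium holds VPA, CHIR99021, 616452, Parnate, Forskolin, AM580, EPZ004777, bFGF, vitamin C at 250 µM, KSR and FBS. RNA-seq was made from 2 libraries with the solvent DMSO and 2 with R406. The sources used here do not give the R406 concentration or the day of RNA harvest. CUT&Tag, which cuts and tags DNA next to a bound antibody, was made with the anti-FLAG antibody M2 from 1 DMSO and 1 R406 library. Those fibroblasts carried rtTA and TetO-Flag-Nfatc1 lentiviruses, were kept in Stage 1 medium with Dox and received DMSO or R406 for 4 days. Their Nfatc1 was therefore a tagged protein under forced expression, and the values say nothing of the untreated level of the native factor. The blank library, made with no primary antibody, was not analysed here.

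Collagen chains are made in the endoplasmic reticulum, hydroxylated on proline and lysine, wound together into a long helix and secreted. Fibroblasts are the main makers of types I, III and V, which assemble into banded fibrils after their end pieces are cut off, and lysyl oxidases then cross-link the fibrils. Type IV forms the sheet of basement membranes, type VI forms beaded microfilaments, and FACIT collagens sit on the surface of fibrils.

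Expression was given in TPM, a measure corrected for transcript length that adds up to the same fixed total in every library. TPM allows levels of different genes to be compared, but it keeps no read depth, so the number of reads behind a value is unknown. Of 13929 genes averaging 1 TPM or more, 593 were higher and 564 lower in R406 by limma at an adjusted p threshold of 0.05. Of the fibroblast markers, 9 of 10 were tested, 0 rose and 2 fell. Thy1 measured 1145 and 1065 TPM with DMSO against 837 and 749 TPM with R406, and Tcf21 was listed at 0 in 1 library of each group. The summed level of the fibroblast list was 2942 to 3885 TPM in DMSO and 2128 to 2951 TPM in R406. Other lists moved with the groups: 6 of 11 endoderm and 7 of 9 tested epithelial markers rose, 8 of 8 tested macrophage markers fell and 2 of 7 smooth muscle markers fell. Of the endothelial markers 1 of 4 tested rose, and 0 of 5 tested Schwann and neural crest markers passed. Summed levels were 2055 to 2718 TPM against 2281 to 3765 TPM for endoderm, most of it Sparc, 171 to 186 against 482 to 859 TPM for epithelium, 231 to 270 against 7.35 to 7.44 TPM for macrophages and 968 to 1323 against 377 to 511 TPM for smooth muscle. The part of these shifts in the collagen values was not tested. In bulk RNA, more cells of a type and more RNA per cell cannot be told apart. The labels do not say whether replicates were separate cultures. The p-values therefore rest on the spread between these libraries alone, and that spread may be technical.

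The promoters of 4 collagen genes are printed because CUT&Tag peaks lay over them and because their RNA values span the pattern described below. They are RefSeq sequences of build GRCm38.p6, from 250 bases before to 50 bases after an annotated start, 5′ to 3′ on the gene's strand. Capitals mark GGAAA or its reverse complement TTTCC, the core letters of NFAT sites. The window of Col15a1 is chr4:47207762-47208061 (plus strand), that of Col3a1 chr1:45311288-45311587 (plus strand), that of Col1a2 chr6:4505368-4505667 (plus strand) and that of Col4a2 chr8:11312555-11312854 (plus strand). The Col4a2 window also covers the start of Col4a1, which runs the other way from a start 21 bp away.
Col15a1: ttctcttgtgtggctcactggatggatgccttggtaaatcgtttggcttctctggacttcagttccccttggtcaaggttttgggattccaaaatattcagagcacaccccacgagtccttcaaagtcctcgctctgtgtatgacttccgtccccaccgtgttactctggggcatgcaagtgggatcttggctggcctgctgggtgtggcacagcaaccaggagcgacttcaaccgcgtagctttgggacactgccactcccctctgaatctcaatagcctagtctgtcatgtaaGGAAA
Col3a1: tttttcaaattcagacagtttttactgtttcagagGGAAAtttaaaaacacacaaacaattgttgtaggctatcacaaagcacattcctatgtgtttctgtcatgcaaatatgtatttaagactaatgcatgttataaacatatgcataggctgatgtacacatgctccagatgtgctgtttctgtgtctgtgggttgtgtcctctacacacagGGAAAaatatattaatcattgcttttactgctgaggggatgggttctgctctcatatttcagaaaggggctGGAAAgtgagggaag
Col1a2: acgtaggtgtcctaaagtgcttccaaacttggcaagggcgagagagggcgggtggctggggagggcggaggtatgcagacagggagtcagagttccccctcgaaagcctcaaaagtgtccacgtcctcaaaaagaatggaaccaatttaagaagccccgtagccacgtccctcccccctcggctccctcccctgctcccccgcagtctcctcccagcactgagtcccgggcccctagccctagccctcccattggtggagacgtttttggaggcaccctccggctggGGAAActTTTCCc
Col4a2: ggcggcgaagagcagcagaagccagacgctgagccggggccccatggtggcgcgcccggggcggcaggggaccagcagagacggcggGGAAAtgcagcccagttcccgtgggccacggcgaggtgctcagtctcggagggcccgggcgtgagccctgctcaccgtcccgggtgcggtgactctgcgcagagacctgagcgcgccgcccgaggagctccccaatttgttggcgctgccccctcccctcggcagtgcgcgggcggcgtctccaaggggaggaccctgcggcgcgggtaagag

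The Col15a1 window holds the motif once, in its last bases after the start and outside the R406 peak, which ends at chr4:47207877. The Col3a1 window holds the motif 3 times, 2 before the start and 1 after. The Col1a2 window holds both orientations close together after the start, and the Col4a2 window holds it once, before the start. Of 44 collagen genes, 35 had at least 1 promoter in the table, with 38 windows in all. GGAAA on either strand was in 22 of the 38 windows (57.9%), beside 61.3% of all 32851 promoter windows of the same length. The longer TGGAAA, which contains the shorter motif, was in 5 of 38 (13.2%), beside 21.4% of all windows. A match describes the letters only. The genes without a window were Col1a1, Col2a1, Col4a3, Col5a2, Col9a3, Col12a1, Col14a1, Col22a1 and Col26a1.

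The comparison of R406 with DMSO asks how the inhibitor changed gene expression in Stage 1 cells. Collagen RNA was higher in the R406 libraries in the fibrillar and minor classes and not in the basement membrane or FACIT classes, taken as sums. The summed level of all 44 genes was 2655 and 2032 TPM in the DMSO libraries and 4657 and 2986 TPM in the R406 libraries. The groups did not overlap, yet R406 replicate 2 lay nearer to DMSO replicate 1 than to R406 replicate 1. Fibrillar genes summed to 1502 and 1192 TPM in DMSO and 3273 and 2121 TPM in R406, a ratio of means of 2.00. Minor collagens summed to 24.7 and 19.3 TPM against 81.0 and 54.0 TPM, a ratio of 3.07. Basement membrane genes summed to 698 and 413 TPM against 704 and 407 TPM, a ratio of 1.00. The network class stood at 248 and 214 TPM against 408 and 249 TPM. The FACIT class stood at 184 and 194 TPM against 192 and 155 TPM. The fibrillar and minor groups did not overlap, the network groups all but met, and the basement membrane and FACIT groups overlapped. These sums got no test. Without Col1a1, Col1a2 and Col3a1 the sums overlapped, at 1330 and 999.6 TPM against 1703 and 1093 TPM. A class sum follows its most abundant genes, which were Col18a1 for basement membrane and Col12a1 for FACIT. Counted by gene, the classes differed less. The median limma log2 difference of tested members was 0.875 for fibrillar, 0.98 for basement membrane, 0.70 for FACIT, 0.44 for network and 1.04 for minor genes. In the FACIT class, 3 of the 6 tested genes passed the expression filter through the R406 group only. The FACIT median lay between 2 of them, Col9a2 (0.53) and Col20a1 (0.88). In the minor class 1 of 5 did so, Col25a1, and its value was the class median. Such genes had to be higher in R406, so the medians of these 2 classes are a description.

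**Figure D1:**
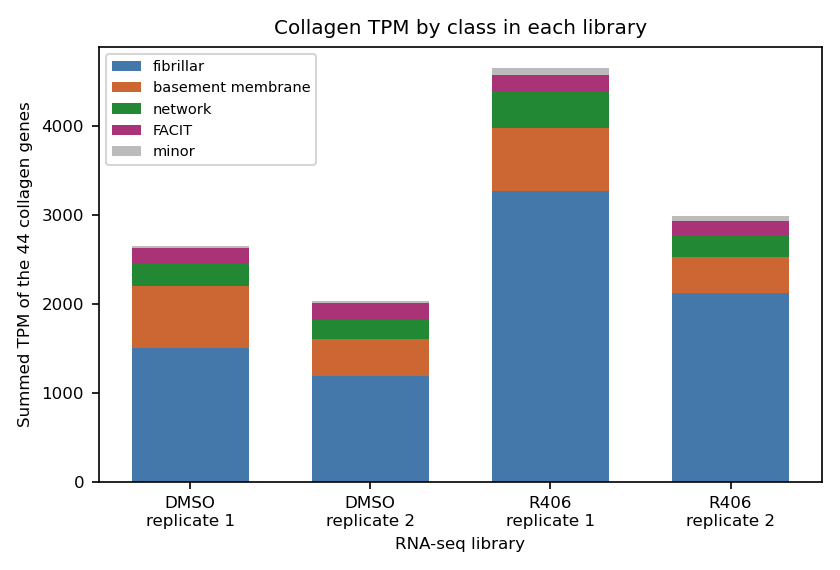
Summed TPM of the 44 collagen genes in each RNA-seq library, stacked by class. The fibrillar part was largest in every library, at 1192 and 1502 TPM with DMSO and 2121 and 3273 TPM with R406.

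Of the 44 collagen genes, 31 reached a mean of at least 1 TPM and were tested by limma on log2(TPM + 1), with p-values adjusted over all 13929 genes. In this test 9 collagen genes rose (29.0% of those tested, beside 4.26% of all genes tested) and 0 fell (beside 4.05%). An unadjusted limma p under 0.05 was reached by 13 (beside 26.8% of all genes), 12 with R406 higher and 1, Col4a5, with R406 lower. The libraries did not overlap with R406 higher in 16 (beside 25.9%) and with R406 lower in 5 (beside 30.2%), and they overlapped in 10. The median log2 difference of the tested collagens was 0.88, beside −0.02 for all tested genes. Of those tested, 4 passed the expression filter only through the R406 group (Col9a2, Col14a1, Col20a1 and Col25a1), so they had to be higher there and these counts are a description. R406 replicate 1 was above R406 replicate 2 in 28 of 31 tested collagens (90.3%, beside 70.9% of all genes), and DMSO replicate 1 was above DMSO replicate 2 in 21 of 31 (67.7%, beside 60.0%).

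The calls rested on different numbers of libraries. Col15a1, Col26a1 and Col8a2 passed the threshold when any 1 of the 4 libraries was left out. Without DMSO replicate 1 or without DMSO replicate 2, those were the 3 called genes that still passed, while 7 of the 9 passed without R406 replicate 1 and 9 without R406 replicate 2. With no filter on low values, 0 of the 9 passed, with limma adjusted p from 0.0593 to 0.113.

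**Figure D2:**
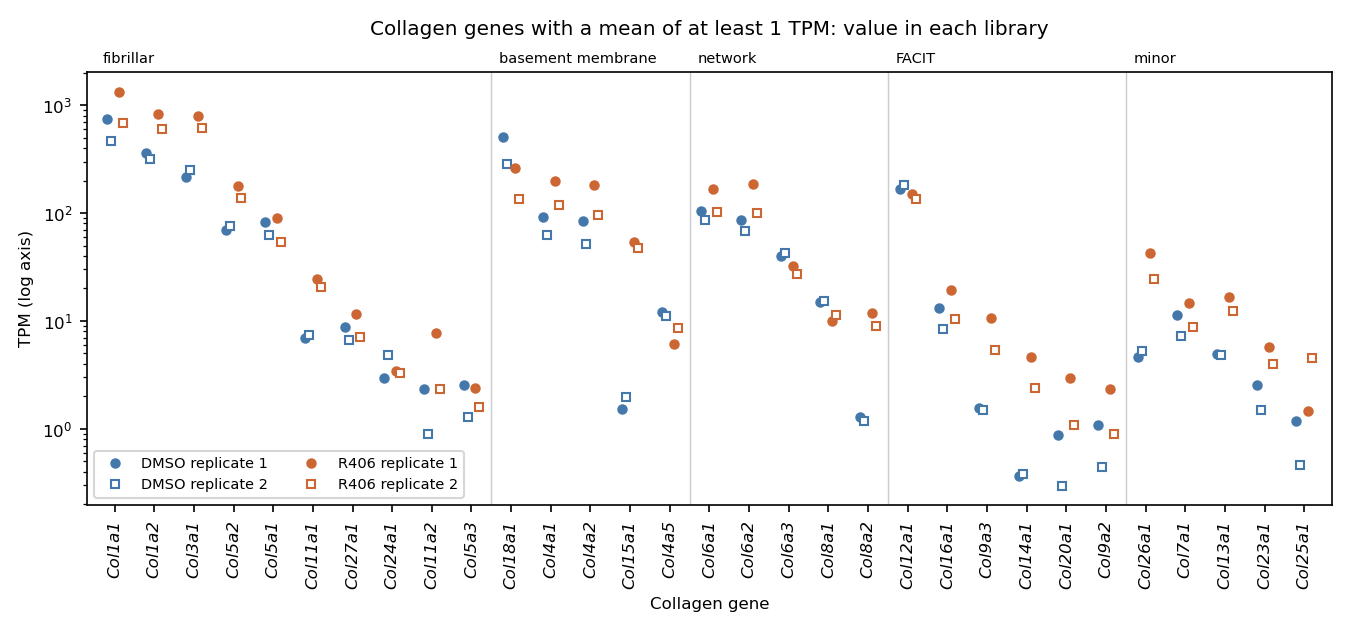
TPM (log axis) of the 31 tested collagen genes in each library, grouped by class and ordered by mean level. Col15a1 and Col8a2 show the widest gaps between groups, while Col1a1 and Col5a1 overlap.

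Among fibrillar collagens, 3 of 10 tested genes rose, 0 fell and 7 did not pass. Col3a1 (ENSMUSG00000026043, chr1:45311538-45349706), whose chain makes up type III collagen of soft and healing tissue, stood at 215 and 252 TPM in DMSO and 786 and 616 TPM in R406. Both R406 libraries were above both DMSO libraries, and the gene rose by 1.58 ± 0.22 (log2, SE; limma adjusted p = 0.0257), a 3.00-fold ratio of mean TPM. It lost the call without DMSO replicate 1 (limma adjusted p = 0.116) or DMSO replicate 2 (limma adjusted p = 0.0638). Col5a2 (ENSMUSG00000026042, chr1:45374331-45503282), its neighbour on the chromosome, encodes a chain of type V collagen, which helps to start fibrils. Its values were 69.2 and 75.3 TPM in DMSO and 179 and 139 TPM in R406, without overlap, and it rose by 1.12 ± 0.21 (limma adjusted p = 0.0439). The call held without R406 replicate 2 and was lost without any of the other libraries (limma adjusted p from 0.104 to 0.218). Col11a1 (ENSMUSG00000027966, chr3:114030479-114220756) encodes a chain of type XI collagen, best known from cartilage fibrils. It measured 6.91 and 7.44 TPM in DMSO and 24.6 and 20.8 TPM in R406, and it rose by 1.53 ± 0.19 (limma adjusted p = 0.0207). Both R406 values were well above both DMSO values, and the call was lost without DMSO replicate 1 (limma adjusted p = 0.0887) or DMSO replicate 2 (limma adjusted p = 0.0546).

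The genes of type I collagen had the highest mean TPM of the class and did not pass the test. Col1a1 ranked first among collagens in every library, at 751 and 461 TPM in DMSO and 1332 and 677 TPM in R406. R406 replicate 2 lay below DMSO replicate 1, and the log2 difference was 0.69 ± 0.42 (limma adjusted p = 0.368). Col1a2 stood at 359.5 and 319.6 TPM in DMSO and 836 and 599.9 TPM in R406. Its groups did not overlap, with a log2 difference of 1.06 ± 0.24 (limma adjusted p = 0.0639), and it passed without R406 replicate 2 (limma adjusted p = 0.0471). Type I collagen pairs 2 kinds of chain, and the ratio of Col1a1 to Col1a2 TPM was 2.09 and 1.44 in DMSO and 1.59 and 1.13 in R406, which overlapped. Col3a1 relative to Col1a2 was 0.598 and 0.789 in DMSO and 0.940 and 1.03 in R406, which did not overlap. Ratios between chains are given here and below as descriptions, and no test was run on them.

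The other fibrillar genes did not pass. Col5a1, the partner chain of Col5a2, measured 83.4 and 63.0 TPM in DMSO and 90.2 and 53.5 TPM in R406, with a log2 difference of −0.06 ± 0.32 (limma adjusted p = 0.932). The ratio of Col5a1 to Col5a2 was thus 1.20 and 0.836 in DMSO and 0.504 and 0.385 in R406, without overlap. Col11a2 measured 2.36 and 0.898 TPM in DMSO and 7.65 and 2.35 TPM in R406. R406 replicate 2 lay just below DMSO replicate 1, and the difference of 1.09 ± 0.54 (limma adjusted p = 0.277) passed without R406 replicate 2 (limma adjusted p = 0.0238). Col27a1, Col24a1 and Col5a3 had log2 differences of −0.14 to 0.22, and their libraries overlapped. Col2a1, the main collagen of cartilage, was not tested, with 0.312 TPM at most. Of the chondrocyte markers, Matn1 was listed at 0 in all 4 libraries, Acan was at or below 0.0969 TPM and Sox9 was between 0.941 and 1.12 TPM, and 0 of 2 tested markers passed. The osteoblast list had Dmp1 listed at 0 in all libraries and 1 of 3 tested markers lower, Runx2. The other tested markers differed in sign and did not pass. Alpl measured 1.54 and 1.60 TPM in DMSO and 10.6 and 4.87 TPM in R406 (1.68 ± 0.36, limma adjusted p = 0.0577). Ibsp had a log2 difference of −0.48 (limma adjusted p = 0.213).

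Among basement membrane collagens, 1 of 5 tested genes rose, 0 fell and 4 did not pass, and genes of the class differed in sign. Col15a1 (ENSMUSG00000028339, chr4:47207655-47313167) encodes a collagen with proteoglycan side chains that links basement membranes to the matrix beneath. It measured 1.54 and 1.97 TPM in DMSO and 53.6 and 47.0 TPM in R406. The libraries of each group lay close together, and the gene rose by 4.22 ± 0.20 (limma adjusted p = 0.00785), a 28.7-fold ratio of mean TPM and the largest log2 change among the tested collagens. Its nearest relative is Col18a1, the source of the fragment endostatin. Col18a1 stood at 508 and 285 TPM in DMSO and 263 and 136 TPM in R406. Both R406 values were below both DMSO values, but the values within each group differed widely. The log2 difference, with a 95% interval of −2.13 to 0.12, did not pass (limma adjusted p = 0.228). Replicate 1 was above replicate 2 in both groups. In a fit that blocked by replicate number, Col18a1 was called lower (limma adjusted p = 0.00397). Whether those numbers mark a shared culture is not known. Col18a1 was among the 3 most abundant collagens in both DMSO libraries and in neither R406 library, where Col3a1 stood instead. The ratio of Col15a1 to Col18a1 was 0.00303 and 0.00693 in DMSO and 0.204 and 0.345 in R406.

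The type IV chains are encoded in head-to-head gene pairs, of which Col4a1 and Col4a2 had similar levels. Col4a1 measured 91.0 and 63.0 TPM in DMSO and 198 and 118 TPM in R406. Col4a2 measured 84.2 and 51.8 TPM in DMSO and 182 and 95.1 TPM in R406. Neither gene's groups overlapped, and the differences of 1.01 ± 0.33 (limma adjusted p = 0.139) and 0.98 ± 0.41 (limma adjusted p = 0.209) did not pass. Without R406 replicate 2 both passed (limma adjusted p = 0.0442 for Col4a1 and 0.0475 for Col4a2). The ratio of Col4a1 to Col4a2 was 1.08 and 1.22 in DMSO and 1.09 and 1.25 in R406, which overlapped. Col4a3 and Col4a4 lie side by side on chromosome 1 and were below the filter. Col4a3 was at 0.00979 and 0.00383 TPM in DMSO and 0.699 and 0.821 TPM in R406. Col4a4 was at 0.116 and 0.0680 TPM in DMSO and 0.786 and 0.979 TPM in R406. These values are low, of unknown depth and untested, and in neither gene did the groups overlap. The pair on chromosome X had the other sign: Col4a5 measured 12.2 and 11.1 TPM in DMSO and 6.11 and 8.53 TPM in R406 (−0.62 ± 0.23, limma adjusted p = 0.166). Col4a6 measured 0.364 and 0.340 TPM in DMSO and 0.159 and 0.104 TPM in R406 and was not tested. Type IV collagen is a known product of extraembryonic endoderm. Of the 11 endoderm markers, Gata4, at 6.44 and 11.9 TPM in DMSO and 61.8 and 47.7 TPM in R406, was among the 6 that rose. Gata6, Dab2 and Sparc overlapped between the groups and did not pass, Dab2 with a log2 difference of −0.25. Whether these markers bear on the type IV values was not tested.

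Among FACIT collagens, 2 of 6 tested genes rose, 0 fell and 4 did not pass. Col9a3 (ENSMUSG00000027570, chr2:180598102-180622192), a chain of type IX collagen, measured 1.55 and 1.49 TPM in DMSO and 10.6 and 5.43 TPM in R406. The R406 libraries differed from each other by more than the lower of them did from DMSO, and the gene rose by 1.78 ± 0.32 (limma adjusted p = 0.0414). Of its partner chains, Col9a2 was at 1.09 and 0.446 TPM in DMSO and 2.33 and 0.888 TPM in R406, which overlapped (95% interval of the log2 difference −0.40 to 1.46), and Col9a1 did not exceed 0.111 TPM. Col14a1 (ENSMUSG00000022371, chr15:55307644-55520803), which binds the surface of type I fibrils, measured 0.363 and 0.385 TPM in DMSO and 4.65 and 2.40 TPM in R406. It rose by 1.67 ± 0.29 (limma adjusted p = 0.0380) and had passed the filter through the R406 group only. Both FACIT calls were lost without either DMSO library, with limma adjusted p from 0.0564 to 0.0928.

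Col12a1 was by far the most abundant FACIT gene and encodes the collagen of tendon and other loaded tissue. It stood at 166 and 182 TPM in DMSO and 151 and 134 TPM in R406. The R406 values were the lower ones, with a log2 difference of −0.29 ± 0.18 (limma adjusted p = 0.391). Col16a1 measured 13.2 and 8.35 TPM in DMSO and 19.6 and 10.4 TPM in R406, which overlapped. Col20a1 measured 0.883 and 0.297 TPM in DMSO and 2.97 and 1.07 TPM in R406, and its difference of 0.88 ± 0.39 (limma adjusted p = 0.235) passed without R406 replicate 2 (limma adjusted p = 0.0364). Col19a1, Col22a1 and Col9a1 were not tested, with 0.165 TPM at most.

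Among network-forming collagens, 1 of 5 tested genes rose, 0 fell and 4 did not pass. Col8a2 (ENSMUSG00000056174, chr4:126286794-126314330), a chain of the hexagonal lattice of type VIII collagen, measured 1.29 and 1.19 TPM in DMSO and 11.8 and 8.98 TPM in R406. It rose by 2.34 ± 0.21 (limma adjusted p = 0.0148), and the groups were far apart. Its partner chain Col8a1 measured 15.1 and 15.4 TPM in DMSO and 10.0 and 11.5 TPM in R406, a difference of −0.47 ± 0.18 (limma adjusted p = 0.190). The ratio of Col8a2 to Col8a1 TPM was 0.0854 and 0.0771 in DMSO and 1.18 and 0.783 in R406. The RNA levels of these genes were thus similar only with R406, and protein was not measured here.

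The type VI genes did not pass the test. Col6a1 measured 105 and 86.5 TPM in DMSO and 166 and 101 TPM in R406 (0.44 ± 0.30, limma adjusted p = 0.413). Col6a2 measured 86.5 and 67.7 TPM in DMSO and 187 and 100.2 TPM in R406 (0.83 ± 0.35, limma adjusted p = 0.216), and it passed without R406 replicate 2 (limma adjusted p = 0.0457). Col6a3, the largest chain, measured 39.6 and 43.0 TPM in DMSO and 32.6 and 27.3 TPM in R406 (−0.46 ± 0.19, limma adjusted p = 0.217). The groups of Col6a1 overlapped and those of the other two did not, with Col6a2 higher and Col6a3 lower in R406. The ratio of Col6a1 to Col6a3 was 2.65 and 2.01 in DMSO and 5.08 and 3.71 in R406. Col6a4, Col6a5, Col6a6 and Col10a1, the collagen of hypertrophic cartilage, were not tested, with 0.460 TPM at most.

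Among the minor collagens, 2 of 5 tested genes rose, 0 fell and 3 did not pass. Col26a1 (ENSMUSG00000004415, chr5:136741759-136883376), a short collagen described from testis and ovary, measured 4.67 and 5.25 TPM in DMSO and 42.6 and 24.2 TPM in R406. It rose by 2.48 ± 0.31 (limma adjusted p = 0.0204), the second largest log2 change of the collagens, although the R406 libraries differed from each other. Col13a1 (ENSMUSG00000058806, chr10:61838234-61979206), a transmembrane collagen of cell adhesion sites, measured 4.95 and 4.82 TPM in DMSO and 16.5 and 12.4 TPM in R406. It rose by 1.38 ± 0.21 (limma adjusted p = 0.0305), and the call held without R406 replicate 2 and was lost without any of the other libraries (limma adjusted p from 0.0516 to 0.111). The other transmembrane collagens were lower in level: Col23a1 measured 2.56 and 1.50 TPM in DMSO and 5.73 and 3.95 TPM in R406, without overlap (0.95 ± 0.28, limma adjusted p = 0.110). Col25a1 measured 1.19 and 0.458 TPM in DMSO and 1.46 and 4.51 TPM in R406 (1.04 ± 0.45, limma adjusted p = 0.228), and R406 replicate 2 alone set it apart. Without R406 replicate 1 it passed (limma adjusted p = 0.0262). Col7a1, which forms the anchoring fibrils beneath epithelia, measured 11.2 and 7.24 TPM in DMSO and 14.6 and 8.86 TPM in R406, which overlapped. Col17a1, the collagen of hemidesmosomes, was listed at 0 in 3 libraries and at 0.00902 TPM in DMSO replicate 2, and Col28a1 did not exceed 0.0813 TPM.

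**Figure D3:**
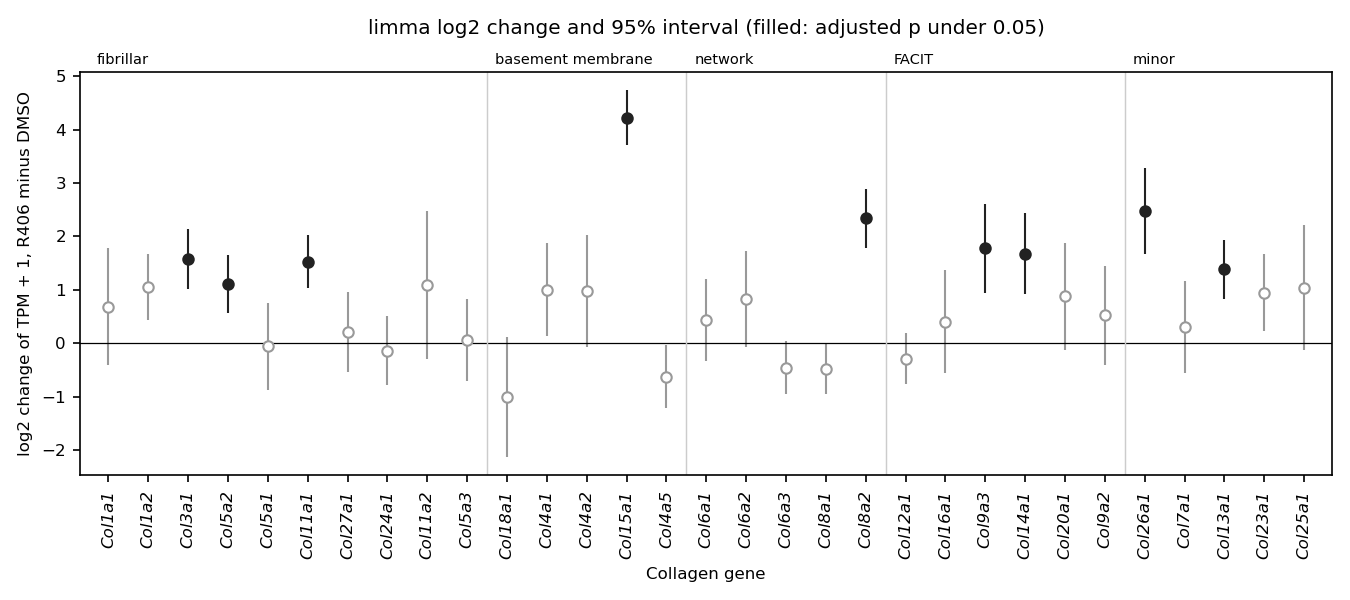
limma log2 difference of TPM + 1 (R406 minus DMSO) with 95% intervals for the 31 tested collagen genes, by class; filled points passed the adjusted p threshold of 0.05. All 9 filled points lie above 0, from 1.12 (Col5a2) to 4.22 (Col15a1).

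Genes that act on collagen were called in both directions and in few cases. Of 54 genes in 4 lists of collagen handling, 42 were tested, 2 rose and 1 fell, beside the same 4.26% and 4.05% of all genes. Of 21 tested genes of folding and modification, 1 rose and 0 fell, with 9 log2 differences above 0 and 12 below (list median −0.10). P4ha2, a catalytic subunit of prolyl 4-hydroxylase, measured 49.0 and 43.4 TPM in DMSO and 158 and 106 TPM in R406, and it rose by 1.47 ± 0.26 (limma adjusted p = 0.0374). The groups were apart, but the call held in only 1 of the 4 fits with a library left out. The related P4ha1 and P4ha3 differed in sign, neither overlapped between groups and neither passed. P4ha1 measured 36.2 and 34.2 TPM in DMSO and 50.5 and 44.6 TPM in R406 (0.42 ± 0.18, limma adjusted p = 0.226). P4ha3 measured 80.8 and 73.6 TPM in DMSO and 53.2 and 43.1 TPM in R406 (−0.68 ± 0.20, limma adjusted p = 0.112). Plod2, a lysyl hydroxylase, measured 7.25 and 9.46 TPM in DMSO and 13.9 and 15.7 TPM in R406 (limma adjusted p = 0.0998). Of 10 tested genes of procollagen cleavage and cross-linking, 0 passed, while 1 had a log2 difference above 0 and 9 below (list median −0.77, beside −0.02 for all tested genes). An unadjusted limma p under 0.05 was reached by 6 of the 10 (beside 26.8% of all genes), 1 with R406 higher and 5 with R406 lower. The cross-linking enzyme Lox measured 55.9 and 74.0 TPM in DMSO and 123 and 164 TPM in R406 (1.13 ± 0.25, limma adjusted p = 0.0622). Its relative Loxl4 measured 25.2 and 20.8 TPM in DMSO and 12.2 and 9.49 TPM in R406 (−1.02 ± 0.22, limma adjusted p = 0.0600). Of the other lysyl oxidase genes, named after their values were seen, Loxl1 measured 84.3 and 40.3 TPM in DMSO and 18.2 and 8.70 TPM in R406 (−2.12 ± 0.49, limma adjusted p = 0.0670), and Loxl2 and Loxl3 had log2 differences of −0.75 and −0.57. The groups did not overlap in any of these 5 genes, with Lox higher and the others lower in R406, and none passed the threshold, although Loxl1 and Loxl4 passed it after median centring (limma adjusted p = 0.0312 and 0.0272) and quantile normalization (0.0293 and 0.0266), with unchanged direction.

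Of 6 tested collagen receptors, 0 rose and 1 fell, and the log2 difference was below 0 in all 6 (list median −0.71). The summed level of the list was 599.9 and 536 TPM in DMSO and 309.7 and 255 TPM in R406. Itgb1 was the largest part of this sum in every library. The integrin alpha chains of the list were low, with Itga11 the highest of them at 1.73 to 4.08 TPM. Itgb1, the beta chain shared by the collagen-binding integrins, measured 331 and 334 TPM in DMSO and 144 and 141 TPM in R406. The replicates were nearly equal and the groups far apart, and the gene fell by 1.22 on the log2 scale (SE 0.17, limma adjusted p = 0.0264), though it passed in 0 of the 4 fits with a library left out. The receptor kinase Ddr2, which binds fibrillar collagen, measured 50.0 and 66.7 TPM in DMSO and 25.7 and 33.4 TPM in R406 (−0.96 ± 0.24, limma adjusted p = 0.0832). Gp6 and Lair1, receptors of platelets and leukocytes, were listed at 0 in all libraries. Of 5 tested proteoglycans that bind fibrils, 1 rose and 0 fell. Kera, keratocan, measured 4.99 and 7.56 TPM in DMSO and 18.5 and 21.5 TPM in R406 and rose by 1.55 ± 0.25 (limma adjusted p = 0.0326), a call that held in 3 of the 4 fits with a library left out. Dcn, decorin, measured 206 and 250.4 TPM in DMSO and 310.5 and 382 TPM in R406 (0.60 ± 0.22, limma adjusted p = 0.164).

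CUT&Tag for FLAG-Nfatc1 addressed where this factor sits on DNA with and without R406. There was 1 library per condition, so no difference between conditions could be tested. The authors' lists held 21246 peaks for DMSO and 36885 for R406, of which 73.0% and 41.4% overlapped a peak of the other list by at least 1 bp. The read depth of these libraries is unknown, so a longer list or a higher fold in 1 list cannot be read as more binding. Fold enrichment below is the authors' value for each peak, and coordinates are those of mm10.

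Peaks lay in or within 5 kb of most collagen genes in both lists. In the DMSO list 30 of 44 collagen genes had such a peak, beside 39.6% of protein-coding genes, and in the R406 list 32 of 44, beside 55% of protein-coding genes. In both lists it was 27 of 44, beside 37% of protein-coding genes. Among genes with a mean of 1 TPM or more the shares lay closer: 77.4% of collagens and 56.4% of protein-coding genes for DMSO, 80.6% and 75.4% for R406, and 71.0% and 53.3% for both lists. With the gene body left out, 43.2% of the 44 collagens and 32.2% of protein-coding genes had a DMSO peak within 5 kb of an end, and 47.7% and 47.1% had an R406 peak there, and 34.1% and 29.5% had both. Collagen genes are long, with a median of 114410 bp against 17761 bp for protein-coding genes. Per 100 kb of gene and flank, collagen genes held 1.85 peaks in the DMSO list and 3.03 in the R406 list, beside 1.29 and 2.22 for protein-coding genes. Within 1 kb of an annotated start, 9 of the 35 collagen genes with such a start had a DMSO peak, beside 24.4% of protein-coding genes. For R406 it was 16 of 35, beside 36.2%, and in both lists 9 of 35, beside 22.1%. These collagen shares are 25.7% for DMSO, 45.7% for R406 and 25.7% for both. Protein-coding genes with a start and a mean of 1 TPM or more had higher shares, of 39.6%, 57.6% and 36.1%. The 35 collagens were not limited by expression there. The wider windows of gene body and 5 kb, over all 44 genes, held 109 DMSO peaks and 177 R406 peaks. In each list 84 of these overlapped a peak of the other list (77.1% and 47.5%). In the wider windows the R406 list had more peaks at 27 genes and fewer at 4, in a list that was longer over the whole genome. No peak of either list was counted for 9 collagen genes.

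**Figure D4:**
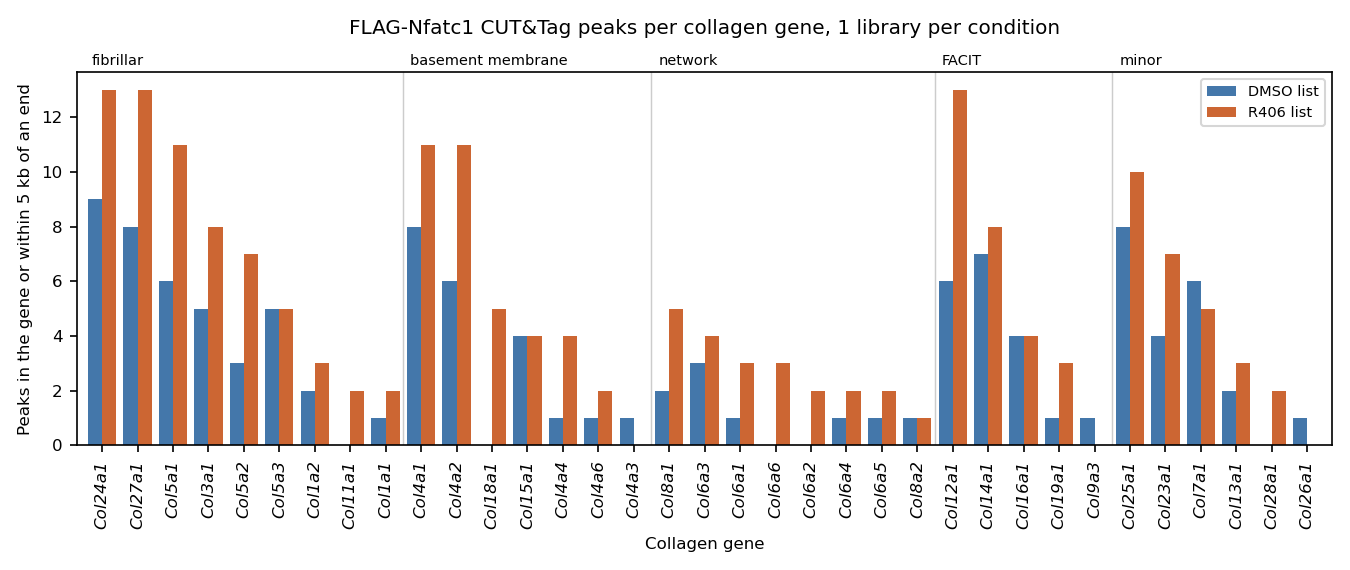
Number of FLAG-Nfatc1 peaks in each collagen gene or within 5 kb of an end, in the DMSO and the R406 list (1 library each), for the genes with a peak. Col24a1, Col27a1 and Col12a1 had 13 peaks each in the R406 list.

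At the start of Col3a1, whose promoter is printed above, both lists had a peak. The DMSO peak at chr1:45311198-45312216 had a 20.4-fold enrichment and its summit 42 bp after the start, and the R406 peak at chr1:45311102-45312344 a 36.1-fold enrichment and its summit 149 bp after it. At the start of Col1a2 the DMSO peak (chr6:4505605-4506295) had a 6.56-fold and the R406 peak (chr6:4505234-4506211) an 11.4-fold enrichment. Both genes thus had a start peak under either condition, and only Col3a1 was past the threshold in RNA. Col1a1, whose strand was not in the table used, had a peak over its lower-coordinate end in both lists, of 15.3-fold and 22.1-fold enrichment.

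At the start of Col15a1 the R406 list alone had a peak. It lay at chr4:47207537-47207877, with its summit 187 bp before the annotated start of the printed window. The gene's RefSeq interval begins earlier, at chr4:47207655, and the summit lay 170 bp inside it. The 5.69-fold enrichment of the peak was below the median of 8.86 of that list. The predicted gene Gm12426 lies under the same peak, and RNA was not made strand-specific, so transcripts of overlapping genes cannot be told apart. Inside the gene there were 4 DMSO and 3 further R406 peaks, of which 2 were shared. The R406 list also had a peak at chr8:11311958-11312821, of 13.3-fold enrichment, across the common start region of Col4a1 and Col4a2, where the DMSO list had none. The summit was 328 bp into Col4a1 and 307 bp before the start of Col4a2. Col18a1 had 0 peaks in the DMSO list and 5 in the R406 list, of 5.06 to 8.22-fold enrichment, while its RNA values were lower in R406. Col5a2 had an R406 peak of 10.1-fold enrichment with its summit 309 bp from an end of the gene and no DMSO peak there.

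Among the 9 collagen genes that rose, 8 had a DMSO peak, 7 an R406 peak and 6 both, and they held 24 DMSO and 33 R406 peaks. Among the 22 that were tested and not called, 16 had a DMSO peak, 18 an R406 peak and 16 both, and they held 79 and 127 peaks. The shares among protein-coding genes with a mean of 1 TPM or more were 56.4%, 75.4% and 53.3%. The called genes were longer, with a median of 128952 bp against 95748 bp for those not called. Of the 3 genes whose call held without any library, Col8a2 had 1 peak in each list, at different places in the gene. Col26a1 had 1 peak in the DMSO list (6.56-fold enrichment) and 0 in the R406 list, and Col15a1 had 4 in each. Col9a3 also had 1 DMSO peak and 0 R406 peaks, and Col11a1 0 and 2.

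The highest enrichments near collagen genes were at genes whose RNA was not called. The peak 3689 bp before the start of Col7a1 had a 43.7-fold enrichment in the DMSO list and a 112-fold enrichment in the R406 list. It also lies in the neighbouring gene Uqcrc1, so its place says nothing of which gene it belongs to. The next highest DMSO peaks, of 39.3-fold and 26.5-fold enrichment, were in Col27a1, 6157 bp and 11569 bp after its start. In the R406 list the next were also in Col27a1, of 59.5-fold and 55.0-fold enrichment, 6156 bp and 1443 bp after its start. Col27a1 RNA measured 8.86 and 6.67 TPM in DMSO and 11.6 and 7.13 TPM in R406, which overlapped.

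**Figure D5:**
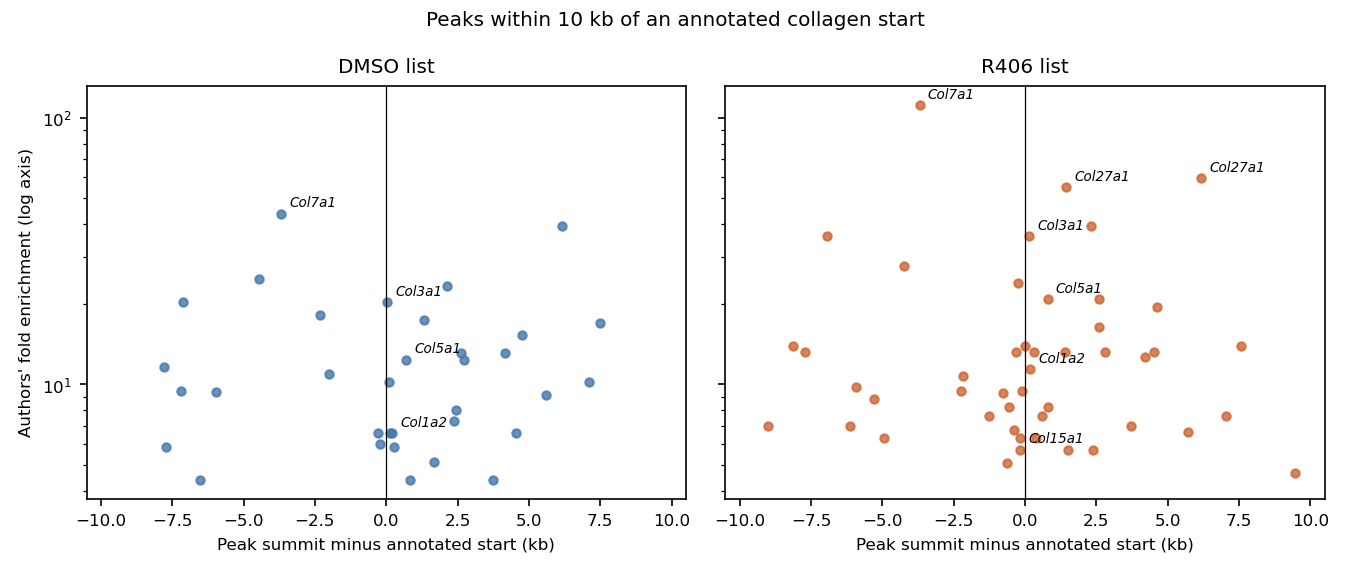
Authors' fold enrichment (log axis) of FLAG-Nfatc1 peaks against the distance of the summit from an annotated collagen start, in kb, for the DMSO and the R406 list. Positive distances are downstream of that start; the peak at the start of Col15a1 appears in the R406 panel only, and the peak before Col7a1 is the highest in both.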

How the data were processed

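RNA-seq was measured in 2 DMSO and 2 R406 libraries, grouped by sample title. The authors deposited TPM per gene, and the 4 single files equalled the columns of their table. HISAT2 2.1.0, StringTie 2.0 and mm10 are named, per the submitters' processing notes. The sources used here do not give their roles or the annotation. Per the labels' protocols the NEBNext Ultra kit was used, which does not mark strand. TPM sums to a fixed total, so a rise of some genes lowers others, and depth cannot be recovered. An exact 0 is given as listed at 0, since it may be a failed estimate.

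The peak lists that the authors deposited, 1 per CUT&Tag library, give each peak's fold enrichment (a ratio), its score, and its p and q on the −log10 scale. Per the same notes, Bowtie2 2.2.5 and MACS2 2.1.2 were among the tools. The sources used here do not give the control or the calling threshold.

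Of 53715 gene IDs, 53620 had a symbol. R406 and DMSO were compared with limma 3.58.1 (R 4.3.3) in the 13929 genes averaging 1 TPM or more. The two-sided test used log2(TPM + 1) and an intensity trend of the prior variance, with Benjamini-Hochberg adjustment and a threshold of 0.05. A log2 change on this scale understates that of low genes. The script was tested on simulated data. Alternatives covered the pseudocount, the filter, the scaling, the trend, a replicate block and each library left out. Values are given for collagens that were called, for the 3 most abundant per class, for those whose call changed without a library, and for called pathway genes with the 2 smallest p per list. Other genes named were chosen after their values were seen. The members and lists were chosen with earlier results of these data known. Peaks were joined to genes of RefSeq GRCm38.p6 by position.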

Additional observations from a re-analysis of the deposited data

How the results depend on the processing

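The counts of calls depended on the processing more than the direction of the called genes did. The genes followed singly were the tested collagens, the called collagen-handling genes, those with the 2 smallest p per list, and Loxl1, Loxl2 and Loxl3. Over the alternatives run, 0 of them reversed where either fit gave a call. Among collagens never called, the log2 difference changed sign for Col5a1 (−0.43 to 0.31), Col5a3 (−0.25 to 0.37) and Col24a1 (−0.41 to 0.13). It also did for Col27a1 (−0.10 to 0.53), Col7a1 (−0.03 to 0.64) and Col16a1 (−0.02 to 0.83). The direction of the other collagen-handling genes was not followed. The 9 rises of collagens became 0 with no filter on low values, where 0 higher and 0 lower were called among all 27879 genes and 0 and 0 among collagen-handling genes. An unadjusted limma p under 0.05 was reached there by 5394 genes, 18 of 44 collagens among them, and the cause was not tested. With a minimum of 5 TPM, 311 genes were higher and 332 lower, and 6 of the 7 called collagens still tested passed. Beside 593 genes higher and 564 lower, median centring gave 933 higher and 755 lower, with 10 collagens higher, 0 lower and 3 collagen-handling genes lower. Quantile normalization gave 877 genes higher and 850 lower, with 11 collagens higher, 0 lower and 3 collagen-handling genes lower. Scaling without mitochondrial and ribosomal protein genes, chosen for the calls after the data were seen, gave 889 genes higher and 768 lower, 10 collagens higher and 0 lower, and 3 collagen-handling genes lower, and moved the mean collagen sum from 2344 to 3149 TPM in DMSO and from 3822 to 5244 TPM in R406. With single libraries left out, collagens called higher ranged from 3 to 15, genes called higher from 159 to 914 and lower from 158 to 574, and collagen-handling genes called higher from 0 to 2 and lower from 0 to 2. Without DMSO replicate 1 there were 3 collagens, without DMSO replicate 2 there were 3 and without R406 replicate 2 there were 15.

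The replicate numbers are not said to mark a shared culture. Deviations of same-numbered libraries correlated at 0.556 across genes, over only 2 pairs, and no label gives the numbers a meaning, so whether same-numbered libraries share a culture or batch is not settled. With the replicate block, 17 collagens were higher and 2 lower, the 9 called ones among them, with 2128 and 2535 of all genes and 9 and 14 collagen-handling genes. The 2 lower collagens were Col18a1 (limma adjusted p = 0.00397) and Col8a1 (limma adjusted p = 0.0450).

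Counting only peaks within 5 kb of a gene end, a choice made after the data were seen, left 19 collagens with a DMSO peak, 21 with an R406 peak and 15 with both (43.2%, 47.7% and 34.1%, beside 32.2%, 47.1% and 29.5% of protein-coding genes), so the R406 share was close to that of other genes. TPM and the peak lists keep no depth, so low values such as those of Col4a3 have no counting error.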
